A study of Mus musculus with 6 samples.

Results

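The genes described here encode heterogeneous nuclear ribonucleoproteins (*Hnrnp* genes) and RNA-binding motif proteins (*Rbm* genes). They were chosen by name alone, as every protein-coding row whose symbol begins with Hnrnp, or with Rbm followed by a digit or an x. This gave 63 of the 54532 rows of the table, 20 *Hnrnp* genes and 43 *Rbm* genes. Gene levels were measured by RNA-seq of total RNA from STRA8+ germ cells of mouse testis, in 3 control libraries of genotype Cre and 3 cKO libraries with conditional knockout of *Srsf1*, which encodes an SR splicing factor. The Cre driver, the strain, the age, the number of animals and the *Srsf1* alleles of the controls are not given in the sources used here. Nothing says that the libraries of a group came from separate mice, so the p-values measure only the spread between these libraries, which may be technical.

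hnRNPs coat transcripts as they are made, and many of them act on splice site choice beside or against SR proteins. RBM proteins share an RNA recognition motif or a similar name rather than a single pathway, and they include spliceosome components, subunits of RNA decay and methylation complexes, and regulators of stability and translation. In the testis, *Rbmx* is carried by the X chromosome, which is silenced during the pachytene stage of meiosis, and its retrogene *Rbmxl2* on an autosome is known for its role in male meiosis. RBM46 acts with MEIOC and YTHDC2 at the entry into meiosis.

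Levels are given as FPKM (fragments scaled to gene length in kilobases and to library size, so that genes of different length can be compared). Fold changes are log2 differences of cKO against control on log2(FPKM + 1), a scale on which the change of a gene with low FPKM comes out too small. A gene was tested where its mean over the 6 libraries was at least 1 FPKM, and it was said to rise or fall where the Benjamini-Hochberg adjusted p of limma over all 15451 genes tested was at most 0.05. The libraries held 15364511 to 17310353 fragments on genes in the control group and 14447887 to 15326722 in the cKO group. *Srsf1* stood at 84.7, 45.2 and 51.9 FPKM in control replicates 1, 2 and 3 and at 5.08, 4.94 and 5.17 FPKM in the cKO replicates, a log2 fold change of -3.29 ± 0.22 (SE, limma adjusted p = 5.65e-05). *Stra8* lay between 222 and 313 FPKM in all 6 libraries, and its difference did not pass the test (limma adjusted p = 0.359). The 13 markers of premeiotic and early prophase cells summed to 1181 to 1398 FPKM in control and 1279 to 1532 FPKM in cKO libraries, and 2 of 13 fell. The 10 pachytene markers summed to 760 to 931 FPKM in control and 127 to 148 FPKM in cKO libraries (9 of 10 fell), and the 10 spermatid markers to 2476 to 8330 FPKM, highest in control replicate 2, and 7.24 to 9.0 FPKM (10 of 10 fell). The 20 somatic markers summed to 82.9 to 95.3 FPKM in control and 64.2 to 138 FPKM in cKO libraries, and 1 of the 12 tested rose. No marker of these lists was listed at 0 in all libraries. The pachytene and spermatid sums did not overlap between the groups, while the premeiotic and somatic sums did. For every gene below fewer cells of a type and less RNA per cell cannot be told apart. The part of these markers in the results was not tested.

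Of the 63 genes, 56 passed the filter on low values, all 20 *Hnrnp* genes and 36 of the 43 *Rbm* genes. Between the groups 13 of the 56 rose (23.2%), against 11.8% of all genes tested, and 4 fell (7.14%), against 22.2% of all genes tested. In either direction 17 of 56 were called (30.4%), against 34% of all genes. The 3 cKO libraries did not overlap the 3 control libraries for 30 of the 56 (53.6%), against 50.4% of all genes tested. They lay above the controls for 22 of these, a relation that 21.8% of all genes showed, and below them for 8, a relation that 28.6% of all genes showed. The median log2 fold change of the 56 was 0.10, beside -0.01 over every gene tested. The *Hnrnp* genes (6 of 20 rose, 2 fell, median 0.06) and the *Rbm* genes (7 of 36 rose, 2 fell, median 0.10) are given side by side, and their difference was not tested. Quantile normalization, which moved the median difference over all tested genes to 0.215 (log2), changed the split of calls from 13 up and 4 down (76.5% up) to 25 up and 2 down (92.6% up) among these genes, and from 1821 up and 3437 down (34.6% up) to 5164 up and 2527 down (67.1% up) among all genes. The median of the 56, set against that of all tested genes, was 0.105 above it in the fit as designed and 0.025 above it after quantile normalization. The 4 falls became 2 without control replicate 1 and without cKO replicate 1, 2 or 3. Leaving out control replicate 2 gave 14 rises and 5 falls, with a median of 0.04.

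**Figure D1:**
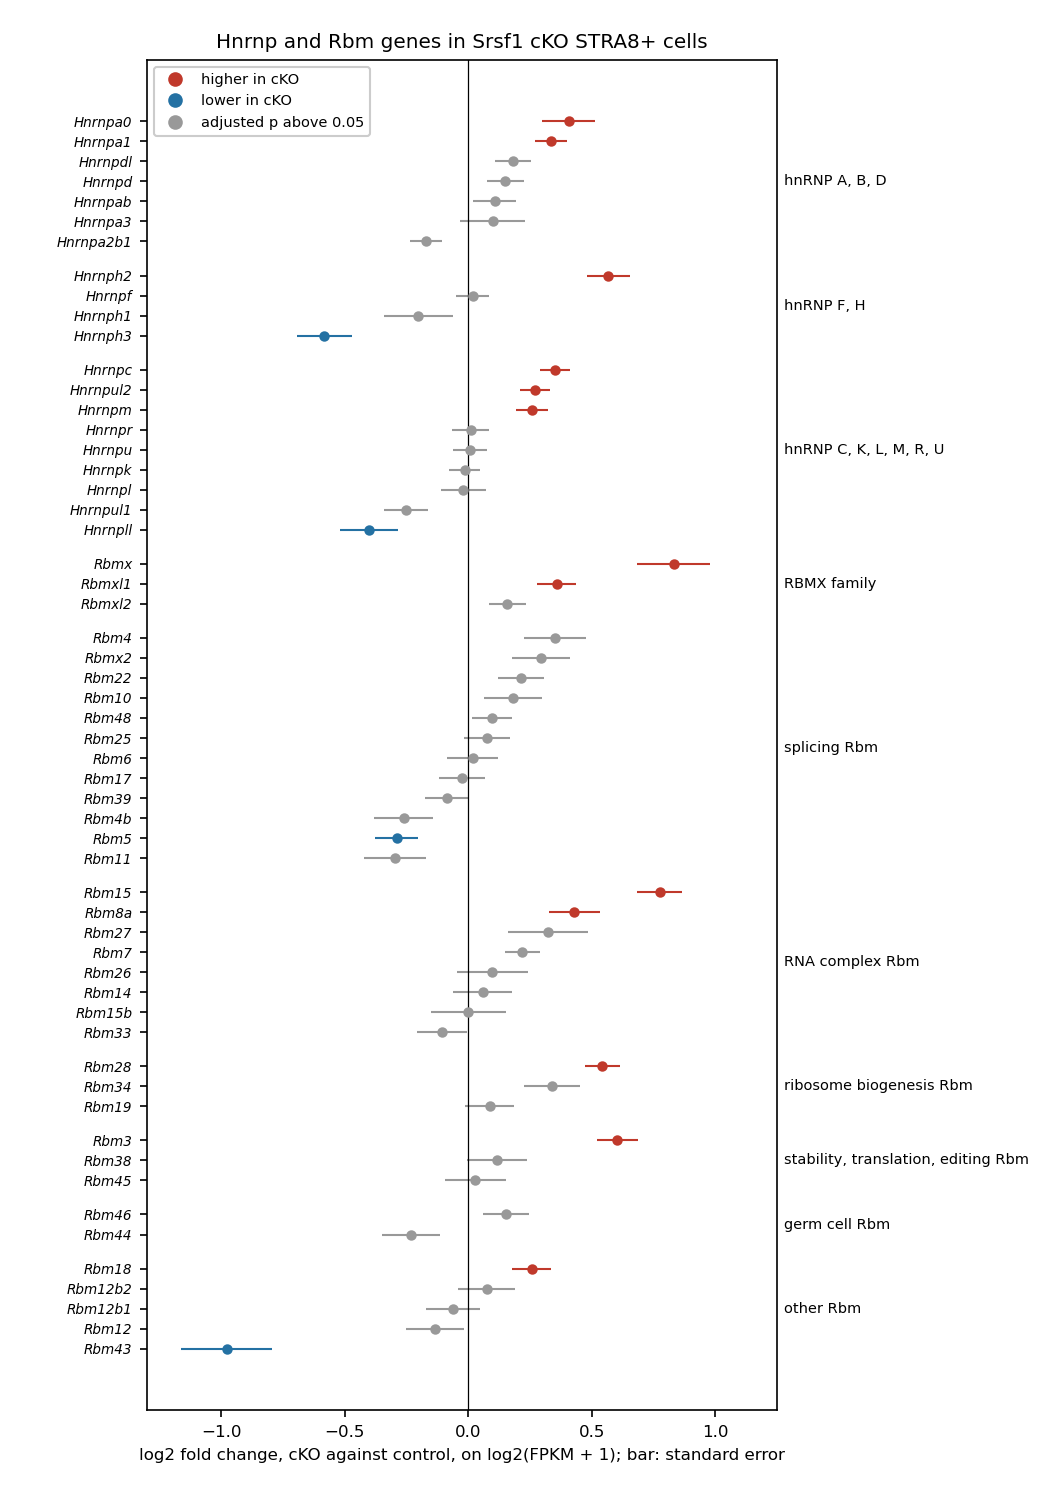
Log2 fold change of cKO against control (horizontal axis, on log2(FPKM + 1), bars are standard errors) for the 56 tested genes, grouped by role. The points run from -0.98 (*Rbm43*) to 0.83 (*Rbmx*), with 13 rises in red, 4 falls in blue and 39 genes that did not pass the test in grey.

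The *Hnrnp* genes were abundant in these cells. All 7 genes with a mean above 100 FPKM were *Hnrnp* genes, and 14 of the 18 with a mean of at least 50 FPKM were. The summed level of the 20 *Hnrnp* genes was 1568 to 1651 FPKM in control and 1625 to 1701 FPKM in cKO libraries, ranges that overlap. The summed level of the 43 *Rbm* genes was 704 to 756 FPKM in control and 794 to 837 FPKM in cKO libraries, which do not overlap. As a share of all FPKM in a library, the *Hnrnp* genes took 0.498% to 0.549% in control and 0.568% to 0.612% in cKO libraries, and the *Rbm* genes took 0.223% to 0.252% and 0.281% to 0.297%. A share also depends on the summed FPKM of all genes, which was not the same in every library. The part of this total in the shares was not tested. The spread between replicates was small, with a median coefficient of variation over the genes of 8.35% in control and 6.38% in cKO libraries.

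The RBMX family holds 3 genes that differ in position and in level. *Rbmx* (ENSMUSG00000031134, chrX:57383530-57393036, minus strand) encodes hnRNP G, a splicing regulator. *Rbmxl1* (ENSMUSG00000037070, chr8:78505269-78508898, minus strand) and *Rbmxl2* (ENSMUSG00000073894, chr7:107209445-107210916, plus strand) are retrocopies of it on autosomes. Coordinates are those of GRCm38 (mm10). The first 90 coding bases of the 3 genes are shown, from GENCODE M21 transcripts, because they show how close each copy is to *Rbmx*. Capitals mark the bases of a copy that differ from *Rbmx*, 6 in *Rbmxl1* and 26 in *Rbmxl2*.
Rbmx: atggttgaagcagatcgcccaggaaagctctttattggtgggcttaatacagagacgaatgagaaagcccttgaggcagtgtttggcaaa
Rbmxl1: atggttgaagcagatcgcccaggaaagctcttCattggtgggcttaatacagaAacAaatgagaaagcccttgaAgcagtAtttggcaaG
Rbmxl2: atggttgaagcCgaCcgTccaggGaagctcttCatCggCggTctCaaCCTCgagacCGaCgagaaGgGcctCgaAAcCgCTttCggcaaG
Over their whole aligned coding sequences *Rbmx* and *Rbmxl1* were identical at 90.9% of bases, and *Rbmx* and *Rbmxl2* at 68.1%. Of the 100-base windows of the transcripts of *Rbmx* and of *Rbmxl2*, 100% occur in no other annotated gene.

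In this family 2 of 3 genes rose and 0 fell by limma (11.8% and 22.2% of all genes tested), also 0 at an unadjusted p under 0.05 and by limma-voom. The median log2 fold change of the 3 genes was 0.36, beside -0.01 over all genes. *Rbmx* stood at 3.31, 2.49 and 3.70 FPKM in control replicates 1, 2 and 3 and at 7.33, 6.04 and 5.79 FPKM in the cKO replicates, so every cKO library was above every control library. Its mean was 2.02 times the control mean, and its log2 fold change of 0.83 ± 0.15 (SE, limma adjusted p = 0.00551) was the largest rise among the 56 genes. *Rbmxl1* stood at 29.7, 28.3 and 30.0 FPKM in control and 41, 38 and 34.8 FPKM in cKO libraries. It too was separated between the groups, with a log2 fold change of 0.36 ± 0.08 (SE, limma adjusted p = 0.0127). That call was lost with the replicate number as a block (limma adjusted p = 0.0506). Of the 100-base windows of *Rbmxl1* transcripts, 40.0% occur in no other annotated gene, and the gene that shares the most of the others is *Gm7324*. The level of *Rbmxl1* is therefore uncertain. *Rbmxl2*, the most abundant of the family, stood at 80.3, 91 and 79.1 FPKM in control and 94.8, 92.6 and 91.9 FPKM in cKO libraries. The groups did not overlap, but the difference did not pass the test (log2 fold change 0.16 ± 0.07, SE, limma adjusted p = 0.143), and it passed without control replicate 2 (limma adjusted p = 0.0373). The ratio of *Rbmx* to *Rbmxl2* was 0.0412, 0.0273 and 0.0468 in the control replicates and 0.0774, 0.0652 and 0.0630 in the cKO replicates, so the retrogene outweighed *Rbmx* in every library. These ratios were formed after the values had been seen, and no test is given.

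The 250 bases before the start of these 3 genes are shown because the start regions of these related genes lie on different chromosomes. The windows are from the promoter table of RefSeq for GRCm38.p6 and are written on the strand of the gene. Capitals mark matches, on either strand, to 5 motifs that were searched. These were the CCAAT box (CCAAT), the GC box (GGGCGG), the cAMP response element (TGACGTCA), the E-box (CACGTG) and the TATA box (TATAAA), and none contains another. The windows lie at chrX:57393037-57393286 for *Rbmx*, chr8:78508929-78509178 for *Rbmxl1* and chr7:107209195-107209444 for *Rbmxl2*.
Rbmx: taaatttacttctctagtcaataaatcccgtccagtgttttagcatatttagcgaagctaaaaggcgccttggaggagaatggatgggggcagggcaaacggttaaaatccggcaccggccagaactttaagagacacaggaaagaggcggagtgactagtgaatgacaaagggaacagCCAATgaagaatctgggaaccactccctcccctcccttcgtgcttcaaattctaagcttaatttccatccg
Rbmxl1: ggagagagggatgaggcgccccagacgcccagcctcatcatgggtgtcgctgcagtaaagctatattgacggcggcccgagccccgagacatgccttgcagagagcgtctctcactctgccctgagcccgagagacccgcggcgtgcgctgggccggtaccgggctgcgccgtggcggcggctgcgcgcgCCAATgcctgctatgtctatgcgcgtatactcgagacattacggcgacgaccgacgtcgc
Rbmxl2: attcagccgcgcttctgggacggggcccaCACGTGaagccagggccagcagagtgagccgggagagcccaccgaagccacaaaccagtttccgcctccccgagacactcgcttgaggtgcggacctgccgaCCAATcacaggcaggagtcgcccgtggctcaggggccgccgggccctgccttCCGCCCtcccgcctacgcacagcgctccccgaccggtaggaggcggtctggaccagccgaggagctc
Each window holds 1 CCAAT box, and that of *Rbmxl2* also holds 1 GC box and 1 E-box. The CCAAT box occurs in 33.8% of all 32851 promoter windows of this length and in 53.8% of the 52 windows of *Hnrnp* and *Rbm* genes in the table. The GC box occurs in 32.7% and 50%, the E-box in 6.02% and 11.5%, the TATA box in 12.4% and 13.5%, and the cAMP response element in 1.55% and 0%. The background counts every RefSeq window, while each of the 52 genes has only the window nearest its start. These sets are unlike, and their difference was not tested. A match describes the letters of a window and is not evidence of binding.

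The H and F family, which binds runs of guanines and acts on splicing and polyadenylation, held 1 rise and 1 fall among 4 genes, beside 11.8% and 22.2% of all genes tested, and the other 2 genes did not pass the test. The first 90 coding bases of *Hnrnph1* (ENSMUSG00000007850, chr11:50376990-50386528, plus strand) and *Hnrnph2* (ENSMUSG00000045427, chrX:134601179-134607060, plus strand) are shown as a close pair of the family, with capitals at the 16 bases of *Hnrnph2* that differ from *Hnrnph1*.
Hnrnph1: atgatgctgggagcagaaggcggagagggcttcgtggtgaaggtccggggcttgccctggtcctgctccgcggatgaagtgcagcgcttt
Hnrnph2: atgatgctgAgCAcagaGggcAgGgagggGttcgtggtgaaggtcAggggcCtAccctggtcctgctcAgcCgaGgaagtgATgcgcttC
Their coding sequences were identical at 85.4% of aligned bases, while *Hnrnph3* was identical to *Hnrnph1* at 71.6%. *Hnrnph2*, which is X-linked, stood at 17.1, 20.7 and 19.2 FPKM in control and 29.5, 27.9 and 28.4 FPKM in cKO libraries. All 3 cKO libraries were above the controls, and the gene rose with a log2 fold change of 0.57 ± 0.09 (SE, limma adjusted p = 0.00261). *Hnrnph3* (ENSMUSG00000020069, chr10:63014664-63024217, minus strand) stood at 66.4, 52.7 and 56.1 FPKM in control and 41.8, 39.8 and 34.3 FPKM in cKO libraries. Every cKO library was below every control library, and the gene fell with a log2 fold change of -0.58 ± 0.11 (SE, limma adjusted p = 0.00773). *Hnrnph1*, the most abundant of all 63 genes, stood at 258, 191 and 225 FPKM in control and 187, 225 and 174 FPKM in cKO libraries. These ranges overlap, and its log2 fold change was -0.20 ± 0.14 (SE, limma adjusted p = 0.305). *Hnrnpf* had a log2 fold change of 0.02 ± 0.07 (SE) and overlapping groups. The ratio of *Hnrnph2* to *Hnrnph3* was 0.257, 0.394 and 0.342 in the control replicates and 0.706, 0.7 and 0.826 in the cKO replicates, without overlap and, since the pair was picked after its values were seen, without a test. Of the 15 pairs of *Hnrnp* or *Rbm* genes whose ratios were formed, 12 did not overlap between the groups. The ratios of *Rbmxl1* to *Rbmxl2*, *Hnrnpdl* to *Hnrnpd* and *Rbm12b2* to *Rbm12b1* did overlap.

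**Figure D2:**
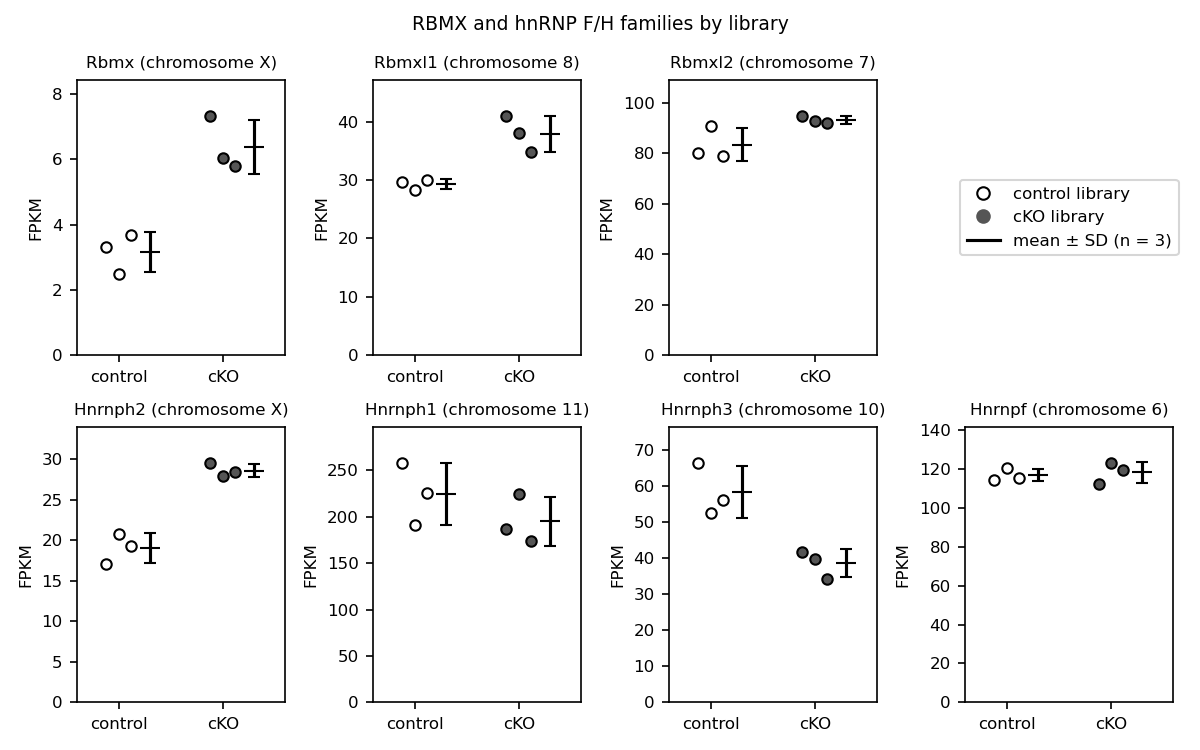
FPKM (vertical axes, from 0) of the 3 genes of the RBMX family and the 4 genes of the hnRNP F and H family in each control library (open points) and cKO library (filled points), with the mean and SD of 3 libraries beside them. *Rbmx*, *Rbmxl1* and *Hnrnph2* lie higher and *Hnrnph3* lies lower in all cKO libraries, while *Hnrnph1* and *Hnrnpf* overlap.

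Of the A, B and D hnRNPs, which bind exonic silencers, AU-rich elements and nascent RNA, 2 of 7 rose and 0 fell by limma, where 11.8% and 22.2% of all genes did, with a median log2 fold change of 0.15 (against -0.01 overall). A fall was seen for 1 gene at an unadjusted p under 0.05 and for 0 by limma-voom. *Hnrnpa1* (ENSMUSG00000046434, chr15:103240432-103246692, plus strand), known for its antagonism with SRSF1 in splice site choice, stood at 113, 123 and 121 FPKM in control and 154, 145 and 152 FPKM in cKO libraries. The groups did not overlap, and the log2 fold change was 0.33 ± 0.07 (SE, limma adjusted p = 0.00846). That call was lost with the replicate number as a block (limma adjusted p = 0.0527). Of the 100-base windows of *Hnrnpa1*, 74.1% occur in no other gene, the others being shared mostly with *Gm10052*. *Hnrnpa0* (ENSMUSG00000007836, chr13:58125879-58128556, minus strand), a gene without introns whose product binds AU-rich elements, stood at 92.3, 120.3 and 108 FPKM in control and 150.1, 142 and 132 FPKM in cKO libraries. It rose by a log2 fold change of 0.41 ± 0.11 (SE, limma adjusted p = 0.027), with cKO above control in all libraries. That call was lost in 7 of 15 alternatives, among them those that left out control replicate 1 or 3 or cKO replicate 1, 2 or 3 (limma adjusted p from 0.0525 to 0.0864). *Hnrnpa2b1*, a regulator of splicing and RNA transport, was the second most abundant of the 63 genes. It stood at 173, 158 and 165 FPKM in control and 147, 147 and 146 FPKM in cKO libraries. The cKO libraries lay below the controls, but the log2 fold change of -0.17 ± 0.06 (SE, limma adjusted p = 0.0822) did not pass the test. The ratio of *Hnrnpa1* to *Hnrnpa2b1*, a pair formed after the values had been seen, was 0.653, 0.779 and 0.732 in the control replicates and 1.05, 0.983 and 1.04 in the cKO replicates. *Hnrnpab*, among the 5 most abundant genes, stood at 109, 131 and 122 FPKM in control and 139, 125 and 126 FPKM in cKO libraries, which overlap. *Hnrnpa3*, *Hnrnpd* and *Hnrnpdl* did not pass the test, with log2 fold changes of 0.10, 0.15 and 0.18, and *Hnrnpdl* passed in 3 of 15 alternatives (limma adjusted p from 0.0235 to 0.0432).

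Among the other hnRNPs 3 of 9 rose (33.3%, all genes 11.8%) and 1 fell (11.1%, all genes 22.2%), with a median log2 fold change of 0.01 (against -0.01 overall). *Hnrnpc* (ENSMUSG00000060373, chr14:52073377-52104028, minus strand), which binds uridine tracts and packages pre-mRNA, stood at 69.2, 68.1 and 69.7 FPKM in control and 88.2, 91.7 and 84.9 FPKM in cKO libraries. The groups were clearly apart, with a log2 fold change of 0.35 ± 0.06 (SE, limma adjusted p = 0.00485). *Hnrnpul2* and *Hnrnpm*, the latter a splicing regulator, rose by log2 fold changes of 0.27 ± 0.06 and 0.26 ± 0.06 (SE, limma adjusted p = 0.0144 and 0.0214). The call on *Hnrnpul2* was lost without cKO replicate 3 (limma adjusted p = 0.0574), and that on *Hnrnpm* without control replicate 3 or any 1 of the cKO libraries (0.0554 to 0.0665). *Hnrnpll* (ENSMUSG00000024095, chr17:80029487-80062334, minus strand), known for its role in the exon choice of *Ptprc* in lymphocytes, stood at 18.2, 14.5 and 15.8 FPKM in control and 10.4, 12.8 and 12.8 FPKM in cKO libraries. All cKO libraries were below the controls, and it fell with a log2 fold change of -0.40 ± 0.12 (SE, limma adjusted p = 0.0372). That call was lost in 9 of 15 alternatives, among them those without control replicate 1 or 3 and without any 1 of the cKO libraries (limma adjusted p from 0.056 to 0.109). Under quantile normalization the log2 fold change was -0.24 (limma adjusted p = 0.127). Its paralog *Hnrnpl* stood at 75.6, 65.4 and 67.5 FPKM in control and 75.6, 64.4 and 65.7 FPKM in cKO libraries, with overlapping groups and a log2 fold change of -0.02 ± 0.09 (SE). *Hnrnpk*, a KH-domain protein among the 5 most abundant genes, stood at 137, 128 and 137 FPKM in control and 134, 134 and 130.1 FPKM in cKO libraries, and its log2 fold change was -0.01 ± 0.06 (SE). *Hnrnpu* and *Hnrnpr* had log2 fold changes of 0.01 each. *Hnrnpul1* did not pass the test either, although its cKO libraries lay below the controls (log2 fold change -0.25 ± 0.09, SE, limma adjusted p = 0.0677), and it passed without control replicate 2 (limma adjusted p = 0.015).

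The list of RNA processing and decay *Rbm* genes holds parts of RNA methylation, exon junction and decay complexes, and also *Rbm14* and *Rbm33*. Of its 8 genes, 2 rose (25%, all genes 11.8%). By limma 0 fell (all genes 22.2%), also 0 at an unadjusted p under 0.05 and by limma-voom. Their median log2 fold change was 0.16, beside -0.01 over all genes. *Rbm15* (ENSMUSG00000048109, chr3:107325421-107333673, minus strand), which recruits the m6A methyltransferase to RNA, stood at 11.8, 10.4 and 11.8 FPKM in control and 20.0, 21.7 and 18.7 FPKM in cKO libraries. Its cKO mean was 1.77 times the control mean, the groups were far apart, and its log2 fold change of 0.77 ± 0.09 (SE, limma adjusted p = 0.000756) had the smallest adjusted p of the 56 genes. Its paralog *Rbm15b* had a log2 fold change of 0.00 ± 0.15 (SE) and overlapping groups. *Rbm8a* (ENSMUSG00000038374, chr3:96629933-96633791, plus strand), which encodes the exon junction protein Y14, stood at 40.8, 38.7 and 36.2 FPKM in control and 51, 59.8 and 46.7 FPKM in cKO libraries. It rose in all cKO libraries relative to the controls, with a log2 fold change of 0.43 ± 0.10 (SE, limma adjusted p = 0.0179), a call that was lost without control replicate 3 (0.0639). *Rbm7*, a subunit of the nuclear exosome targeting complex, lay just outside the threshold (log2 fold change 0.22 ± 0.07, SE, limma adjusted p = 0.0509) and passed in 4 of 15 alternatives (limma adjusted p from 0.00745 to 0.0451). *Rbm14*, *Rbm26*, *Rbm27* and *Rbm33* did not pass the test, with log2 fold changes from -0.10 to 0.32.

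The partners of these proteins can be read beside them. In the exon junction complex 3 of 5 genes rose, *Rbm8a*, *Magoh* and *Eif4a3*, where 11.8% of all genes did. *Casc3* and *Magohb*, the paralog of *Magoh*, did not pass the test, with log2 fold changes of 0.17 ± 0.06 and -0.25 ± 0.21 (SE, limma adjusted p = 0.0829 and 0.391). *Magoh*, which forms a heterodimer with Y14, stood at 87.9, 84.4 and 84.7 FPKM in control and 113, 123 and 115 FPKM in cKO libraries, without overlap (log2 fold change 0.44 ± 0.06, SE, limma adjusted p = 0.00205). *Eif4a3*, the helicase that anchors the complex, stood at 75.1, 78.6 and 68.6 FPKM in control and 98, 85.3 and 95.4 FPKM in cKO libraries, also without overlap (log2 fold change 0.32 ± 0.08, SE, limma adjusted p = 0.025). That call was lost without control replicate 1 or 3 or cKO replicate 1 or 3 (limma adjusted p from 0.0637 to 0.091). Of the 8 genes of the m6A writer complex, *Rbm15* and *Zc3h13* rose (25%, all genes 11.8%) and 6 were not called, with a median log2 fold change of 0.08 (against -0.01 overall). *Zc3h13*, which holds the complex in the nucleus, stood at 38.8, 32.7 and 40.2 FPKM in control and 54.4, 58.8 and 44.8 FPKM in cKO libraries (log2 fold change 0.49 ± 0.12, SE, limma adjusted p = 0.0231), again without overlap. Its call was lost without control replicate 1 or 2 or cKO replicate 1 or 2 (limma adjusted p from 0.0525 to 0.0739). The nuclear exosome targeting complex (3 genes) and the poly(A) tail exosome targeting connection (4 genes) held log2 fold changes from 0.01 to 0.22 and from -0.0034 to 0.32, and *Rbm7* was the nearest to the threshold.

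*Rbm28* (ENSMUSG00000029701, chr6:29123576-29165006, minus strand), needed for ribosome biogenesis in the nucleolus, stood at 20.5, 22.5 and 20.2 FPKM in control and 31.7, 31.2 and 30.5 FPKM in cKO libraries. The 3 cKO values were close together and above every control value, and the log2 fold change was 0.54 ± 0.07 (SE, limma adjusted p = 0.00118). Of the other ribosome biogenesis genes, *Rbm34* lay just outside the threshold (log2 fold change 0.34 ± 0.11, SE, limma adjusted p = 0.0549). It passed in 4 of 15 alternatives, quantile normalization, limma-voom, recomputed FPKM and a mean of at least 5 FPKM (limma adjusted p from 0.00804 to 0.0473). *Rbm19* had a log2 fold change of 0.09 ± 0.10 (SE). *Rbm3* (ENSMUSG00000031167, chrX:8138975-8145880, minus strand), a cold-inducible protein that acts on translation, stood at 12.5, 14.3 and 12.8 FPKM in control and 21.8, 19.4 and 20.6 FPKM in cKO libraries. It was separated between the groups and rose with a log2 fold change of 0.60 ± 0.08 (SE, limma adjusted p = 0.00175). *Rbm38* and *Rbm45*, the other tested genes of its group, did not pass the test.

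Of the *Rbm* genes tied to the spliceosome or to splice site choice, 12 of 15 were tested, 1 fell (8.33%, all genes 22.2%) and 0 rose by limma (all genes 11.8%), with a median log2 fold change of 0.05 (against -0.01 overall). At an unadjusted p under 0.05, 2 genes lay higher and 2 lower. Limma-voom on the recovered fragments called 2 rises, *Rbm4* and *Rbmx2*, and 1 fall, beside 2499 rises and 3321 falls among all genes tested. *Rbm5* (ENSMUSG00000032580, chr9:107740371-107770996, minus strand), a regulator of spliceosome assembly on alternative exons, stood at 14.5, 12.5 and 14.5 FPKM in control and 10.7, 11.5 and 11.1 FPKM in cKO libraries. The cKO libraries were all below the controls, with a log2 fold change of -0.29 ± 0.09 (SE, limma adjusted p = 0.0398). That call was lost in 10 of 15 alternatives, among them those without control replicate 1 or 3 and without any 1 of the cKO libraries (limma adjusted p from 0.0675 to 0.128). Under quantile normalization its log2 fold change was -0.11 (limma adjusted p = 0.365). The neighbouring paralog *Rbm6* had a log2 fold change of 0.02 ± 0.10 (SE) and overlapping groups. The other 10 tested genes had log2 fold changes from -0.30 (*Rbm11*) to 0.35 (*Rbm4*), of which *Rbm4* had a limma adjusted p of 0.0718, passed in 3 of 14 alternatives (0.00727 to 0.0464) and overlaps the gene model *Gm21992*, so that their reads may be shared.

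Among the *Rbm* genes with less defined roles, *Rbm43* (ENSMUSG00000036249, chr2:51924448-51935163, minus strand) stood at 1.96, 3.44 and 2.24 FPKM in control and 0.701, 0.752 and 0.875 FPKM in cKO libraries. It was low in all libraries, with 85, 139 and 102 fragments in control and 29, 29 and 35 in cKO libraries, and its cKO values were all below the control values. The cKO mean was 0.305 times the control mean, and the log2 fold change of -0.98 ± 0.18 (SE, limma adjusted p = 0.00686) was the largest fall of the 56 genes. *Rbm18* rose with a log2 fold change of 0.26 ± 0.08 (SE, limma adjusted p = 0.0471), a call that was lost in 8 of 15 alternatives, among them those without control replicate 1 or 3 and without any 1 of the cKO libraries (0.099 to 0.147). *Rbm12*, *Rbm12b1* and *Rbm12b2* did not pass the test.

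Of the germ cell genes, *Rbm46* (ENSMUSG00000033882, chr3:82837228-82876483, minus strand) stood at 56.6, 45.5 and 51 FPKM in control and 58.4, 58.2 and 53.6 FPKM in cKO libraries. The groups overlap, and its log2 fold change was 0.15 ± 0.09 (SE, limma adjusted p = 0.244). Its partner *Meioc* stood at 123, 93.8 and 111 FPKM in control and 125, 176 and 124 FPKM in cKO libraries (log2 fold change 0.36 ± 0.16, SE, limma adjusted p = 0.134). *Ythdc2*, which encodes an RNA helicase, stood at 24.7, 17.1 and 25.2 FPKM in control and 28.2, 32 and 25.9 FPKM in cKO libraries (log2 fold change 0.36 ± 0.16, SE, limma adjusted p = 0.123). The cKO libraries lay above the controls for both genes, but neither difference passed the test. Both passed by limma-voom on the recovered fragments (adjusted p = 0.0465 and 0.0484). *Rbm44* (ENSMUSG00000070732, chr1:91145089-91170795, plus strand), whose product lies in intercellular bridges of germ cells, stood at 15.5, 14.4 and 11.4 FPKM in control and 10.9, 11.6 and 12 FPKM in cKO libraries. The ranges overlap, and its log2 fold change was -0.23 ± 0.12 (SE, limma adjusted p = 0.179), which passed the test without control replicate 3 (limma adjusted p = 0.0425).

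**Figure D3:**
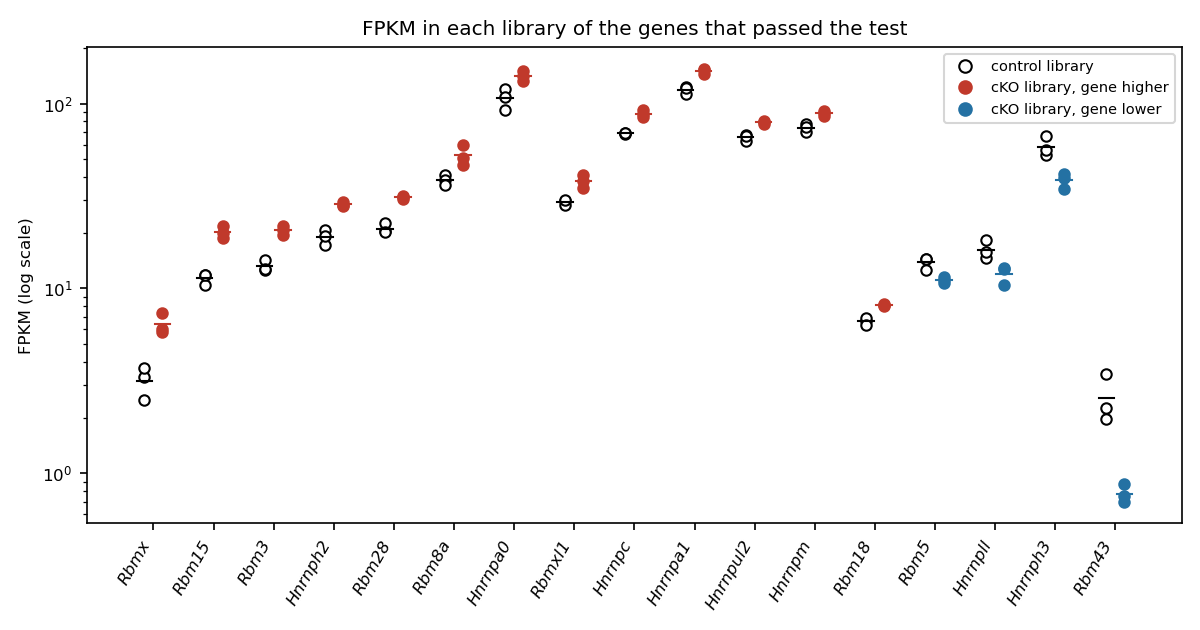
FPKM (vertical axis, log scale) in each control library (open points) and cKO library (filled points) of the 17 genes that passed the test, ordered by log2 fold change, with a short line at the mean of 3 libraries. The 13 genes that rose are red and lie above their controls in all cKO libraries, and the 4 that fell are blue and lie below them.

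Position on the X chromosome was described because *Rbmx*, *Hnrnph2* and *Rbm3* lie on it. These 3 genes rose, so the count of rises below is not independent of that reason. Of the 6 X-linked genes, 5 were tested, 3 rose and 0 fell by limma. At an unadjusted p under 0.05, and by limma-voom, 4 were higher and 0 lower. Over all genes tested limma-voom called 2499 rises and 3321 falls, and no such count is given at an unadjusted p. The median log2 fold change of the 5 X-linked genes was 0.57, and all 5 were above 0. *Rbmx2*, a spliceosome component, stood at 35.2, 29.7 and 35.2 FPKM in control and 37.2, 47.6 and 39.1 FPKM in cKO libraries, without overlap, and did not pass the test (log2 fold change 0.30 ± 0.12, SE, limma adjusted p = 0.0934), although it passed in 3 of 15 alternatives (limma adjusted p from 0.0265 to 0.0413). *Rbm10*, a splicing regulator, stood at 7.01, 5.76 and 7.44 FPKM in control and 8.55, 7.43 and 7.30 FPKM in cKO libraries, which overlap (log2 fold change 0.18 ± 0.12, SE, limma adjusted p = 0.272). Among the 51 tested autosomal genes, 10 rose and 4 fell, with a median of 0.08. The same order was seen over all genes, where 155 of 634 X-linked genes rose (24.4%), 74 fell (11.7%) and the median was 0.20, and 1653 of 14771 autosomal genes rose (11.2%), 3359 fell (22.7%) and the median was -0.02. The pachytene and spermatid markers, whose sums were lower in every cKO library, move with this difference, and their part in it was not tested.

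**Figure D4:**
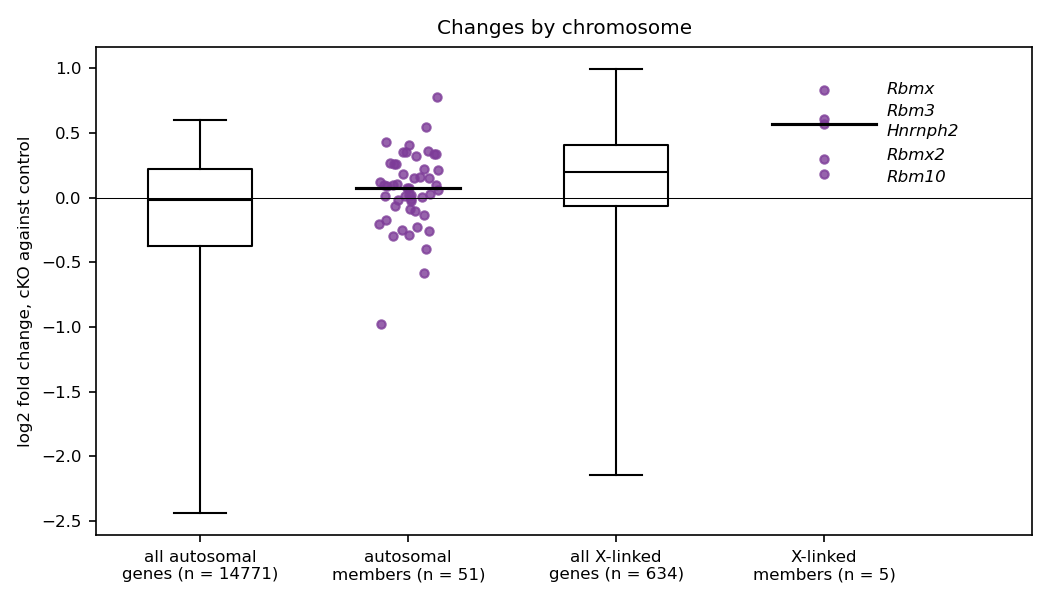
Log2 fold change of cKO against control (vertical axis) for all autosomal genes and all X-linked genes tested (boxes are quartiles, whiskers the 5th to 95th percentile) and for the *Hnrnp* and *Rbm* genes on autosomes and on the X chromosome (points, with a line at the median). All 5 X-linked genes lie above 0, with a median of 0.57, beside 0.08 for the 51 autosomal genes.

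The 7 genes under the filter were *Rbm20*, *Rbm24*, *Rbm31y*, *Rbm41*, *Rbm42*, *Rbm47* and *Rbm8a2*, and they were not tested. *Rbm47*, which acts in RNA editing and stability, had 35, 105 and 30 fragments in control and 4, 9 and 10 in cKO libraries, without overlap. *Rbm41* is X-linked and stood at 0.722, 0.541 and 0.967 FPKM in control and 0.997, 1.26 and 0.991 FPKM in cKO libraries, again without overlap. *Rbm42* lay lower in all cKO libraries, at 12, 10 and 14 fragments in control and 6, 7 and 8 in cKO libraries, and overlaps the gene model *Gm21982*. The Y-linked *Rbm31y* had 1 fragment in control replicate 2 and 0 in the other libraries, which is under the floor of 3 fragments. Of its 100-base windows, 0.0% occur in no other annotated gene, with *Gm21379* sharing the most, so its level is uncertain. *Rbm8a2*, a single-exon copy whose coding sequence is 97.7% identical to that of *Rbm8a*, had 2 to 8 fragments in each library. *Rbm20* and *Rbm24* overlapped between the groups.

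Related genes were taken from 2 lists, relatives of the hnRNPs and partners of the RBM proteins, with 38 of 41 genes tested. Of these 4 rose (10.5%) and 2 fell (5.26%), against 11.8% and 22.2% of all genes, with a median log2 fold change of 0.09. The rises were *Magoh*, *Eif4a3*, *Zc3h13* and *Taf15*, which encodes an RNA-binding subunit of the transcription factor TFIID and stood at 105, 93.6 and 101 FPKM in control and 131, 129.6 and 124 FPKM in cKO libraries (log2 fold change 0.36 ± 0.07, SE, limma adjusted p = 0.0072). *Pcbp3*, a poly(C)-binding relative of hnRNP K, stood at 50.3, 46.3 and 49 FPKM in control and 25.8, 26.6 and 24.9 FPKM in cKO libraries. The groups were far apart, and it fell with a log2 fold change of -0.89 ± 0.07 (SE, limma adjusted p = 9.54e-05). *Ptbp2*, a repressor of exons that is needed in spermatogenesis, stood at 25.3, 20.1 and 23.4 FPKM in control and 15.8, 18.6 and 17.3 FPKM in cKO libraries, all below the controls (log2 fold change -0.39 ± 0.11, SE, limma adjusted p = 0.0299). The call was lost without control replicate 1 or 3 or cKO replicate 1 or 3 (limma adjusted p from 0.0862 to 0.0918). Its paralog *Ptbp1* stood at 44.5, 51.2 and 44.7 FPKM in control and 64.7, 48.5 and 58.7 FPKM in cKO libraries, which overlap, and had a log2 fold change of 0.28 ± 0.12 (SE, limma adjusted p = 0.113), which passed the test without cKO replicate 2 (0.0297). The 4 rises became 2 without control replicate 1, and the 2 falls became 1 without control replicate 1 or 3 or cKO replicate 1 or 3.

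The annotation limits what a gene-level value can say here. In GENCODE M21, 23 of the 63 genes have a transcript annotated for nonsense-mediated decay and 38 have a transcript that retains an intron. A level summed over a gene does not show which of these forms is present. At least 90% of the 100-base windows of 50 of the genes occur in no other gene, and among the called genes below this limit are *Rbmxl1*, *Hnrnpa1* and *Hnrnpm*, of which *Hnrnpm* has 87.6% and shares most with *March2*. *Hnrnph3*, *Rbm18* and *Rbm3* overlap genes on the opposite strand (*Rufy2*, *Mrrf* and *Rbm3os*), over 3.6%, 6.6% and 2.0% of their exonic bases. No source used here says that strand was kept, so reads within these overlaps cannot be assigned to either gene, while the rest of each gene is not touched by this.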

How the data were processed

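RNA-seq libraries of STRA8+ germ cells, 3 control and 3 cKO, were grouped by the genotype and number in their labels. The authors deposited 1 table of FPKM per gene and library with gene lengths. The submitters' processing notes name HISAT2 2.0.5 and mm10, and the counting tool, annotation and strand setting are not given in the sources used here. The product of deposited FPKM and gene length gave whole fragments, within a tolerance of 0.05, for 100% of values above 0. The libraries held 14447887 to 17310353 fragments, and a count of 3 fragments was taken as the floor of a library. FPKM use a denominator that is 0.971 to 1.05 times the fragments on genes. Floors cover counting error only.

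The deposited values were put on the log2(FPKM + 1) scale. The test was that of limma 3.58.1, run under R 4.3.3 on all 6 libraries with genotype as the only term (linear fit, moderated variance with a trend on intensity, two-sided). It covered each gene whose mean reached 1 FPKM, p-values were adjusted by Benjamini-Hochberg, and 0.05 was the threshold. An exact permutation test of 3 libraries against 3 cannot give a p below 0.1. The calculations were tested on simulated data.

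Genes named with values in every library were the 10 largest called rises and falls with groups that did not overlap, X-linked genes whose mean reached 1 FPKM, *Rbmx*, *Rbmxl1*, *Rbmxl2*, *Rbm15*, *Rbm46*, *Rbm44*, *Hnrnpa1*, *Hnrnpa2b1*, *Hnrnpl* and *Hnrnpll*, and the 5 most abundant genes. Of the related genes, those called (at most 5 in each direction) and *Ptbp1*, *Ptbp2*, *Meioc* and *Ythdc2* were named in the same way. *Rbm41*, *Rbm42*, *Rbm47*, *Rbm31y* and *Rbm8a2* were added after their values had been seen. The genes, lists and roles were chosen with earlier results of these data known. Alternatives were a pseudocount of 0.1, no filter or a mean of at least 5 FPKM, median-of-ratios scaling, quantile normalization, no trend, the replicate number as a block, limma-voom on the recovered fragments, an absolute log2 fold change of at least 1, leaving out each library, and FPKM recomputed without the library factor, the last chosen after seeing the data. Of the 42 related symbols, *Mtrex* matched no row and is listed as *Skiv2l2*. Annotation and coding sequences are from GENCODE M21, in which 61 of the 63 genes had the coordinates of the table, and start regions from RefSeq, in which 52 of 63 genes matched.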

Additional observations from a re-analysis of the deposited data

How the results depend on the processing

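The fall of *Srsf1* was called in every alternative run, and no called gene changed sign. Over the alternatives, the 17 called *Hnrnp* and *Rbm* genes kept their call in 208 fits and lost it in 45, and genes not called gained a call in 27. *Rbmx*, *Rbm15*, *Rbm3*, *Hnrnph2*, *Rbm28*, *Hnrnpc*, *Rbm43* and *Hnrnph3* kept theirs in every fit that tested them. The cause of the other changes was not tested. The 7 genes that were not tested were left out by the filter on FPKM, and the part of depth in their values was not tested.

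Counts of calls by limma differed as follows from 13 rises and 4 falls among the *Hnrnp* and *Rbm* genes, 4 and 2 among related genes, and 1821 and 3437 among all genes tested. Quantile normalization gave 25 and 2, 15 and 1, and 5164 rises among all genes. An absolute log2 fold change of at least 1 left 0 and 0, 0 and 0, and 177 and 1939, since on the log2(FPKM + 1) scale the *Hnrnp* and *Rbm* genes ran from -0.98 to 0.83. No filter on FPKM, and eBayes without the trend, each left 2 falls among the *Hnrnp* and *Rbm* genes. A mean of at least 5 FPKM left 1950 falls among all genes, of fewer tested, and limma-voom gave 9 rises among related genes. Leaving out each library in turn gave 9 to 14 rises and 2 to 5 falls among the *Hnrnp* and *Rbm* genes, 2 to 4 and 1 to 3 among related genes, and 969 to 1767 and 2693 to 3510 among all genes. Without control replicate 1 or 3 or cKO replicate 1 or 3, the rises among all genes were 1068, 1079, 1172 and 969.

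With the replicate number as a block, 7 rises and 2 falls were called among the *Hnrnp* and *Rbm* genes, 2 and 1 among related genes, and 891 and 2870 among all genes. The numbers were not taken as a pairing, since the deviations of same-numbered libraries correlated at -0.00138, -0.111 and 0.0161 for numbers 1, 2 and 3, and not every library correlated best with its own number.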
